A study of Arabidopsis thaliana with 18 samples.

Results

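This section compares the suppressor line dcl1-24/hyl1-2 with the wild type Col-0 at 27 °C in a small RNA sequencing study of Arabidopsis thaliana seedlings. The members are the 3 dcl1-24/hyl1-2 and the 3 Col-0 libraries whose labels give 27 °C, which are 6 of the 18 libraries of the series, and all 161 miRNA entries of the deposited table were compared between them. The dcl1-24/hyl1-2 seedlings carried hyl1-2, a null allele of the double-stranded RNA-binding protein HYL1, together with dcl1-24, a dominant proline-to-serine substitution in an RNase III domain of DCL1 that came out of a mutagenesis screen for suppressors of hyl1-2. The line descends from a single mutagenised isolate, so other changes that it may carry cannot be told apart from dcl1-24. The comparison asks which miRNAs of the suppressor line stood at other than wild-type levels in the warm. The other 12 libraries were dcl1-24/hyl1-2 at 21 °C, hyl1-2 at 27 and 21 °C and Col-0 at 21 °C, with 3 libraries each.

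All groups began with 48 h at 21 °C under red light and spent 2 more days at their final temperature, and whole seedlings were collected when 4 d old. The study names its replicates as biological but does not say whether they were separate plantings, and p-values here measure the spread between these libraries. For the tests of single miRNAs, the spread within groups was pooled over all 18 libraries. Since whole seedlings were used, fewer cells that make a miRNA and less of that miRNA per cell cannot be told apart. Levels of HYL1 and DCL1 mRNA were not analysed here.

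In plants, a miRNA is cut out of a hairpin in its primary transcript by DCL1, an RNase III enzyme that works in the nucleus. HYL1 binds the hairpin and helps DCL1 to cut efficiently and at the right place, and most miRNAs fall when HYL1 is missing. The 2 strands of the cut duplex are named 5p and 3p after their side of the hairpin. Usually the guide strand is kept in an ARGONAUTE protein and the passenger strand is lost. Families shared by many flowering plants are cut from their hairpins by DCL1, while some evolutionarily young miRNAs come from long hairpins that are cut by DCL4.

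The sequences below are the miRNAs with the largest changes in each direction, given 5′ to 3′ with the seed, bases 2 to 8, in capitals. The first set, at 27 °C, was raised in dcl1-24/hyl1-2 relative to Col-0, and miR833a-5p is added to it because miR833b has the same seed.
miR5026: aCUCAUAAgaucgugacacgu
miR5650: uUGUUUUGgaucuuagauaca
miR833b: uGUUUGUUgacaucggucuag
miR833a-5p: uGUUUGUUguacucggucuagu
miR837-3p: aAACGAACaaaaaacugaugg
miR837-5p: aUCAGUUUcuuguucguuuca
miR5632-5p: uUGAUUCUcuuauccaacugu
miR4228-3p: uCGGAUGCgaaacgguggugu
miR3440b-3p: uGGAUUGGucaagggaagcgu
miR5654-5p: aUAAAUCCcaacaucuucca
miR8178: uAACAGAGuaauuguacagug
miR863-5p: uUAUGUCUuguugaucucaau
miR3434-5p: aCUUGGCUgauucuauuauu
The second set was lower in dcl1-24/hyl1-2.
miR822-5p: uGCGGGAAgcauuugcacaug
miR822-3p: uGUGCAAAugcuuucuacagg
miR173-5p: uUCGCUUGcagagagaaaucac
miR162a-3p: uCGAUAAAccucugcauccag
miR162a-5p: uGGAGGCAgcgguucaucgauc
miR775: uUCGAUGUcuagcagugcca
miR159a: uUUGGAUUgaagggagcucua
miR319c: uUGGACUGaagggagcuccuu
miR165a-5p: gGAAUGUUgucuggaucgagg
miR840-5p: aCACUGAAggaccuaaacuaac
miR169f-3p: gCAAGUUGaccuuggcucugc
miR171b-5p: aGAUAUUAgugcgguucaauc
The sequences and positions are those of the RefSeq annotation of the TAIR10.1 genome, in which all 203 miRNA names of the table were found.

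At 27 °C, 23 miRNA entries of dcl1-24/hyl1-2 were above and 14 below their Col-0 levels, and 102 did not pass the test. Levels were reads of a miRNA relative to the reads of 45S rRNA in its library (RPMR). Entries that averaged 1 RPMR or more across the 18 libraries, 139 in number, were tested with limma on log2(RPMR + 1). The entries called at an adjusted p under 0.05 were 16.5% of those tested for the higher and 10.1% for the lower direction. Fold changes below are differences on this log2(RPMR + 1) scale, which understates changes of low entries. By a combined threshold of an unadjusted p under 0.01 and a fold change over 2, 35 entries passed (25.2%), of which 21 were higher and 14 lower.

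Every one of the 23 higher entries belonged to a family outside the broadly conserved ones, of which 72 entries were tested. Of the 67 tested entries of conserved families, 0 were higher and 7 were lower in limma. At an unadjusted p under 0.05 these counts were 0 and 11. The 0 depends on the scaling: 5 conserved entries were called higher with libraries scaled to their summed miRNA RPMR without miR5026, and 1, miR398b-3p, was under median-of-ratios scaling. The 5 were miR398b-3p, miR393b-3p, miR168a-5p, miR156b-3p and miR396b-3p. The median log2 fold change of the 67 conserved entries was -0.67, against -0.15 for the other families and -0.52 over all 139 entries. The sign of such a median also depends on the scaling: scaled to the sum without miR5026, the median over all 139 entries was 0.29. All 37 called entries kept their direction under each of the 3 other scalings tried, and 17 of the 23 and 7 of the 14 were called under all 3. Of the 102 uncalled entries, 27 were called under 1 or more of these scalings. Scaling to the summed RPMR called 17 of them lower, leaving miR5026 out of the sum called 10 higher, and median-of-ratios scaling called 3 higher and 3 lower.

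Single libraries weighed on these counts. Without dcl1-24/hyl1-2 replicate 3, which had the largest summed level, 11 entries were higher, and without Col-0 replicate 3, which had the smallest, 15 were. The number of lower entries was 8 without Col-0 replicate 2 and 9 without dcl1-24/hyl1-2 replicate 1. Of the called entries, 10 of the higher and 7 of the lower passed whichever of the 6 libraries was left out.

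**Figure D1:**
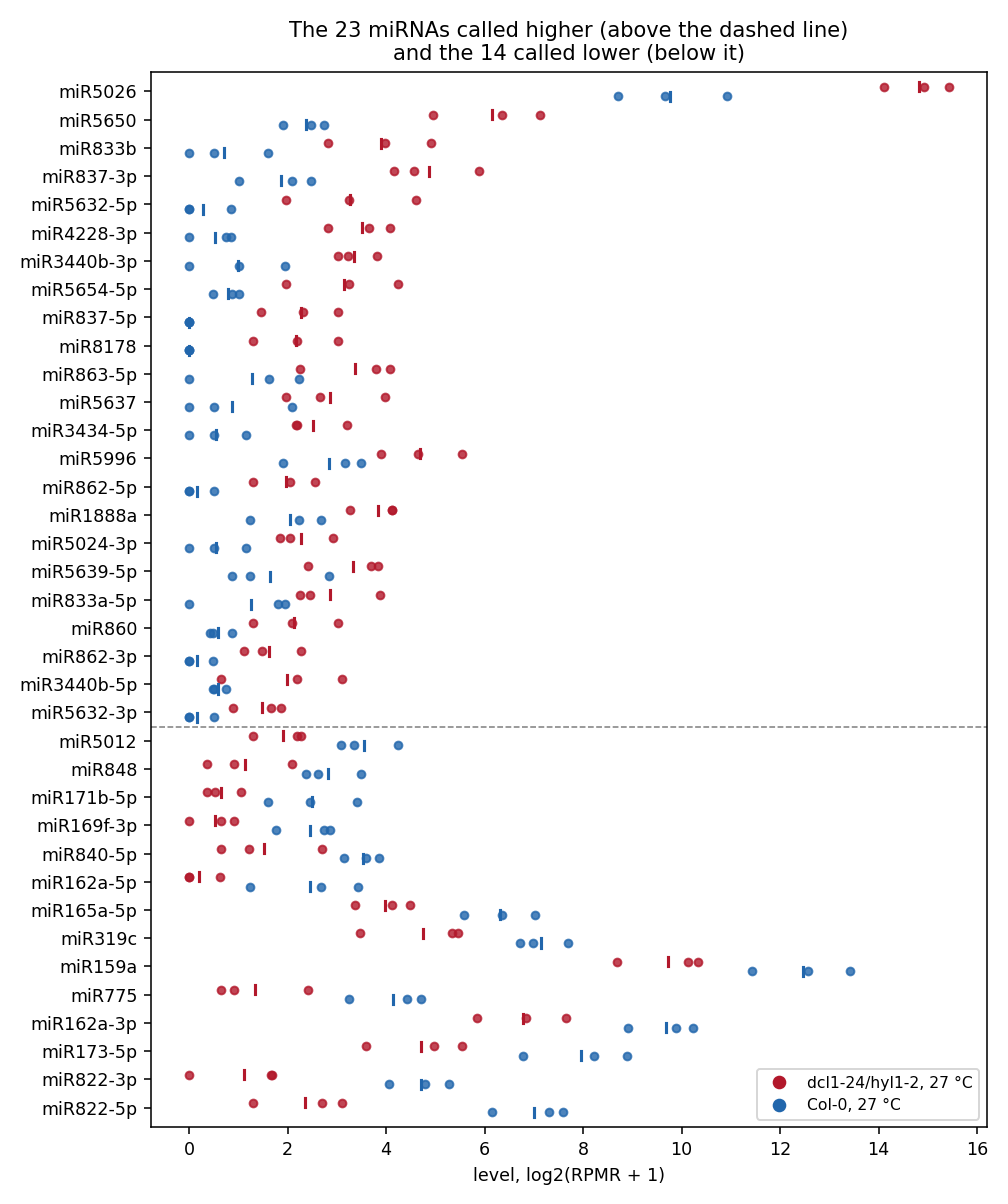
Level of each called miRNA in each library on the horizontal axis, as log2(RPMR + 1), for dcl1-24/hyl1-2 (red) and Col-0 (blue) at 27 °C. Each dot is a library, each vertical tick the mean of 3 libraries, and miRNAs run down the page by log2 fold change. The libraries of the genotypes do not overlap for 20 of the 23 higher and 14 of the 14 lower entries. Calls and overlap come from the same libraries, so little overlap follows from the calls. The count was not made over all tested entries, and 9 of the 22 untested entries did not overlap either.

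The miRNA with the largest rise was miR5026. Its levels in the 3 dcl1-24/hyl1-2 libraries were 17730, 30979 and 43895 RPMR, against 813, 1929 and 420 RPMR in the Col-0 libraries. The lowest dcl1-24/hyl1-2 library was far above the highest Col-0 library, and the log2 fold change was 5.05 ± 0.62 (SE; adjusted p = 6.93e-11). In dcl1-24/hyl1-2 this entry made up 61.7%, 58.5% and 54.5% of the summed miRNA level of a library, against 1.94%, 2.73% and 1.79% in Col-0 (exact permutation test, two-sided p = 0.1, the smallest that 3 against 3 libraries allow). By mean level it was therefore the most abundant miRNA of the suppressor line, whereas miR158a-3p was that of Col-0. In hyl1-2 at 27 °C the levels of miR5026 were 7886, 4370 and 3927 RPMR, between those of the other genotypes. Its share of the summed level in these hyl1-2 libraries was 42.1%, 42.2% and 50.03%, so the large share was not particular to the suppressor line.

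Apart from miR5026, the higher miRNAs were scarce. Their mean levels ranged over 1.91 to 83.3 RPMR in dcl1-24/hyl1-2 and over 0 to 6.96 RPMR in Col-0. At 27 °C a single read was worth 0.29 to 0.546 RPMR in dcl1-24/hyl1-2 and 0.341 to 0.419 RPMR in Col-0, so many of these values stand for a few reads. For instance, miR862-3p had 4, 4 and 7 reads in dcl1-24/hyl1-2, against 0, 1 and 0 reads in Col-0. When a mean of at least 5 RPMR was required, 5 of 87 entries were higher. The replicate 3 library of dcl1-24/hyl1-2 was the highest of its group for 19 of the 23.

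Of these scarce miRNAs, miR5650 reached the highest level. It was at 30.1, 81.1 and 138.6 RPMR in dcl1-24/hyl1-2, against 4.6, 5.71 and 2.73 RPMR in Col-0, a log2 fold change of 3.77 ± 0.74 (SE; adjusted p = 3.06e-05). Its hairpin (chr2:19686957-19687039, plus strand) lies in an intron of EDA4. In hyl1-2 at 27 °C it was at 7.45, 4.44 and 2.67 RPMR, close to Col-0, with a log2 fold change of 0.09 against Col-0 (adjusted p = 0.932).

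The miR833 locus gives a hairpin from each strand within the gene AT1G78476. On the minus strand, miR833b (chr1:29525264-29525284) had 6.09, 14.7 and 28.9 RPMR in dcl1-24/hyl1-2, against 0.419, 2.04 and 0 RPMR in Col-0 (log2 fold change 3.2, adjusted p = 3.47e-05). On the plus strand, miR833a-5p (chr1:29525204-29525225) had 3.77, 4.45 and 13.6 RPMR in dcl1-24/hyl1-2, against 2.51, 2.86 and 0 RPMR in Col-0 (log2 fold change 1.6, adjusted p = 0.043). Both strands of the locus therefore gave entries called higher, but miR833a-5p was close to the limit of the test. Its highest value was in replicate 3 of dcl1-24/hyl1-2, and its 0 was in replicate 3 of Col-0. The pair is the only one among the 23 higher entries that shares a seed.

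Both strands of the miR837 duplex rose too. Their hairpin lies in an intron of NRT1.9, a nitrate transporter gene. The 3p strand had 16.8, 22.7 and 58.4 RPMR in dcl1-24/hyl1-2, against 4.6, 3.27 and 1.02 RPMR in Col-0 (log2 fold change 3.01, adjusted p = 0.000584). The 5p strand had 1.74, 4.01 and 7.1 RPMR in dcl1-24/hyl1-2, and 0 reads in each Col-0 library. With a floor of 3 reads for each Col-0 library, miR837-5p was at least 3.67-fold higher in dcl1-24/hyl1-2. The other tested entry without a read in Col-0 at 27 °C was miR8178, with 1.45, 3.56 and 7.1 RPMR in dcl1-24/hyl1-2, at least 3.46-fold higher. A further 2 entries without a read in Col-0, miR5656 and miR841a-5p, were too low to be tested.

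The miR5632, miR862 and miR3440b hairpins were also called higher on both strands. From the first of these, miR5632-5p had 2.9, 8.46 and 23.5 RPMR in dcl1-24/hyl1-2, against 0, 0.816 and 0 RPMR in Col-0 (log2 fold change 2.99, adjusted p = 3.06e-05). From the last, miR3440b-3p had 8.41, 7.13 and 13.1 RPMR in dcl1-24/hyl1-2, against 0, 2.86 and 1.02 RPMR in Col-0 (log2 fold change 2.37, adjusted p = 0.00164). The opposite strands were closer to the limit of the test, with a log2 fold change of 1.32 for miR5632-3p (adjusted p = 0.0347) and of 1.4 for miR3440b-5p (adjusted p = 0.0356), and the libraries of miR3440b-5p overlapped between the genotypes. Leaving out single libraries took the adjusted p as high as 0.164 for miR5632-3p (without dcl1-24/hyl1-2 replicate 2), 0.255 for miR3440b-5p (without dcl1-24/hyl1-2 replicate 3) and 0.0511 for miR3440b-3p (without Col-0 replicate 1).

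Of the other strongly raised entries, miR4228-3p had 6.09, 11.6 and 15.8 RPMR in dcl1-24/hyl1-2, against 0, 0.816 and 0.683 RPMR in Col-0 (log2 fold change 2.98, adjusted p = 3.06e-05). The 5p strand of miR5654 had 2.9, 8.46 and 18.01 RPMR in dcl1-24/hyl1-2, against 0.837, 0.408 and 1.02 RPMR in Col-0 (miR5654-5p, log2 fold change 2.36, adjusted p = 0.00233). Neither overlapped between the genotypes. The 3p strand of the same hairpin, miR5654-3p, was at a log2 fold change of 0.35 (adjusted p = 0.724). Smaller log2 fold changes were those of 2.09 (miR863-5p, adjusted p = 0.00734) and of 1.97 (miR3434-5p, adjusted p = 0.00837). Without dcl1-24/hyl1-2 replicate 3 neither passed, at adjusted p = 0.0553 for miR863-5p and 0.0593 for miR3434-5p, and miR863-5p did not without Col-0 replicate 3 (adjusted p = 0.0961). The hairpins of miR863 and miR5026 (the second at chr4:7844496-7844688, plus strand) lie within the same annotated non-coding transcript, AT4G13495.

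The calls were then set beside the genomic position of the hairpins. Of the 23 higher entries, 12 lay in an intron of a protein-coding gene and on its strand, 6 lay within a coding gene in another way (on the opposite strand or over an exon), and 5 lay outside coding genes. Read the other way, 12 of the 20 tested entries of same-strand introns were higher (60.0%, against 16.5% of all tested) and 1 was lower, miR848. Their median log2 fold change was 1.53, compared with -0.52 over all tested entries, and it stayed above 0 under each of the 3 other scalings (1.12 to 1.71). Of the 94 tested entries outside coding genes, 5 were higher and 10 were lower, with a median of -0.63. This division was made after the values had been seen, so it is given without a test.

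The intronic miRNAs were nearly all of low level and of families outside the conserved ones. The part of level in this share was not tested. Among other families with a Col-0 mean of at most 10 RPMR, 12 of 18 entries of same-strand introns were higher (66.7%), against 10 of 29 elsewhere (34.5%). This bound was set on Col-0, a side of the comparison, and so favours entries higher in dcl1-24/hyl1-2 in both classes. Levels within the bound were not matched. The 12 higher entries come from 9 hairpins, and strands of a single hairpin are not independent. Their host genes include PKL, which encodes a chromatin remodeller (miR862), AAP5, an amino acid permease gene (miR5024-3p), and alpha-ADR, which encodes an adaptin of vesicle coats (miR3434-5p). Without dcl1-24/hyl1-2 replicate 3, 5 of the 20 intronic entries were higher.

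Not every miRNA of an intron was raised. The uncalled entries of same-strand introns were miR852 (log2 fold change 1.41), miR5640 (0.90), miR838 (-0.06), the shared miR156 guide strand (-1.11, with 1 of its 6 names at such a place), miR844-3p (-1.21), miR781a (-1.25) and miR400 (-1.33). A single host, AT1G32583, holds miR5654-5p over an exon and miR400, which represses pentatricopeptide repeat genes, in an intron. From that gene miR5654-5p was raised, whereas miR400 had 0.87, 2.23 and 1.09 RPMR in dcl1-24/hyl1-2, against 5.44, 10.6 and 1.71 RPMR in Col-0 (adjusted p = 0.089).

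**Figure D2:**
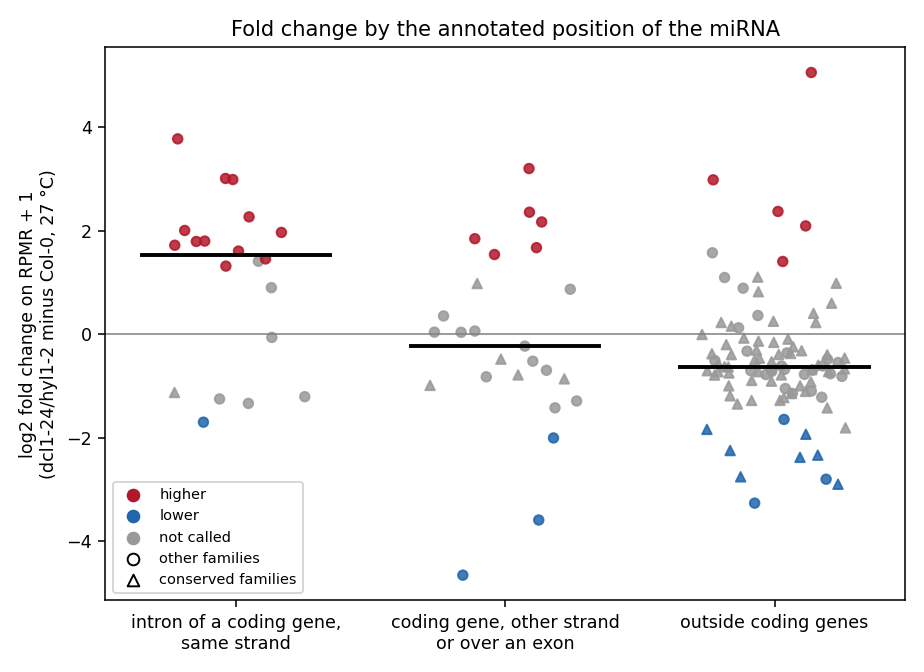
Log2 fold change on RPMR + 1 (dcl1-24/hyl1-2 minus Col-0, 27 °C) of the 139 tested entries on the vertical axis, by annotated position of the miRNA. Dots are entries of other families and triangles those of conserved families, red is called higher, blue called lower and grey not called, and black bars are medians, which stand at 1.53, -0.23 and -0.63.

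In base composition the higher entries were poorer in G and C, with a median of 38.1%, against 48.8% in the lower and 45.5% in all tested entries. All 23 higher entries are of families outside the conserved ones. The median of those families alone was not computed, so a trait of that class cannot be told apart from a trait of the higher entries. A U as first base, the base preferred by AGO1, was found in 15 of the 23 higher, 10 of the 14 lower and 80 of the 139 tested entries. Most were 21 nt long (19 of 23 higher and 9 of 14 lower, of 110 tested). Length 22 nt, known for triggering secondary siRNAs, was found in 2 higher, 4 lower and 13 tested entries.

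Among the 14 lower entries, the deepest losses were of both strands of miR822, a miRNA that DCL4 cuts from a long hairpin. The 5p strand was at 1.45, 7.57 and 5.46 RPMR in dcl1-24/hyl1-2, against 156.5, 191.8 and 69.6 RPMR in Col-0 (miR822-5p, log2 fold change -4.65 ± 0.75, SE; adjusted p = 4.9e-07). The 3p strand was at 0, 2.23 and 2.18 RPMR in dcl1-24/hyl1-2, against 37.7, 26.5 and 15.7 RPMR in Col-0 (miR822-3p, log2 fold change -3.59, adjusted p = 3.06e-05). In neither strand did the genotypes come near each other.

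In hyl1-2 this duplex was less reduced than in the suppressor line. At 27 °C, miR822-5p had 78.6, 77.3 and 46.04 RPMR in hyl1-2, with a log2 fold change of -0.96 for hyl1-2 minus Col-0 (adjusted p = 0.28) and of -3.69 for dcl1-24/hyl1-2 minus hyl1-2 (adjusted p = 8.48e-05). For miR822-3p these values were -0.80 (adjusted p = 0.341) and -2.79 (adjusted p = 0.0011). The suppressor line was thus below both of the other genotypes for this duplex. The suppressor line was also the lowest for miR840-5p, at 0.58, 1.34 and 5.46 RPMR in dcl1-24/hyl1-2, 29.8, 15.1 and 18.7 RPMR in hyl1-2 and 13.4, 11.02 and 7.85 RPMR in Col-0. For miR840-5p the log2 fold change was -2.0 for dcl1-24/hyl1-2 minus Col-0 (adjusted p = 0.0298) and -2.89 for dcl1-24/hyl1-2 minus hyl1-2 (adjusted p = 0.001). The call of miR840-5p against Col-0 was lost without replicate 1 or 2 of dcl1-24/hyl1-2 or replicate 1 or 2 of Col-0 (adjusted p = 0.0709 to 0.151), with 5 RPMR added (-1.12, adjusted p = 0.096) and under scaling to the sum without miR5026 (-1.19, adjusted p = 0.107). These comparisons share libraries with each other. The opposite strand, miR840-3p, did not pass against Col-0 (log2 fold change -0.52, adjusted p = 0.565).

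The most abundant of the lower miRNAs was miR159a, a repressor of MYB transcription factor genes. Its levels were 409, 1122 and 1291 RPMR in dcl1-24/hyl1-2, against 6076, 10954 and 2735 RPMR in Col-0 (log2 fold change -2.75 ± 0.67, SE; adjusted p = 0.000794). The genotypes did not overlap, and Col-0 averaged 7.0-fold more. As a share of the summed level without miR5026, which does not depend on the 45S rRNA reads, miR159a made up 4.11% ± 0.86 in dcl1-24/hyl1-2 and 14.2% ± 2.11 in Col-0 (SD, n = 3 each; exact permutation test, two-sided p = 0.1). The related miR159b-3p had 1117, 2485 and 3156 RPMR in dcl1-24/hyl1-2, against 5187, 8474 and 2548 RPMR in Col-0, which overlapped (log2 fold change -1.23, adjusted p = 0.169). Another relative, miR319c, which represses TCP genes, had 10.2, 43.2 and 39.3 RPMR in dcl1-24/hyl1-2, against 125.6, 206.5 and 104.8 RPMR in Col-0 (log2 fold change -2.38, adjusted p = 0.00987). The call of miR319c was lost without Col-0 replicate 2 (adjusted p = 0.0538), without dcl1-24/hyl1-2 replicate 1 (adjusted p = 0.0976) and under scaling to the sum without miR5026 (-1.43, adjusted p = 0.107). The shared miR319a and miR319b entry did not pass (log2 fold change -1.0, adjusted p = 0.308). Under scaling to summed miRNA RPMR both uncalled relatives were called lower, miR159b-3p at an adjusted p = 0.00294 and miR319a at -1.27 (adjusted p = 0.00686), and miR159b-3p also was under median-of-ratios scaling (-0.74, adjusted p = 0.0476).

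A further lower miRNA was miR173-5p, which starts the making of secondary siRNAs from TAS1 and TAS2 transcripts. It had 11.02, 30.3 and 45.8 RPMR in dcl1-24/hyl1-2, against 297.2, 474.2 and 108.2 RPMR in Col-0 (log2 fold change -3.26, adjusted p = 0.000393). By contrast, miR161.1, which acts on pentatricopeptide repeat genes directly, had 512, 623 and 1541 RPMR in dcl1-24/hyl1-2, against 1281, 1869 and 868 RPMR in Col-0, and did not pass the test (log2 fold change -0.69, adjusted p = 0.483). Its overlapping partner miR161.2 had a log2 fold change of -0.68 (adjusted p = 0.511).

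The mRNA of DCL1 is itself cut under the guidance of miR162, and both strands of this duplex were lower. The guide, an entry shared by miR162a and miR162b, had 56.2, 113.6 and 200.8 RPMR in dcl1-24/hyl1-2, against 945.9, 1197 and 479.9 RPMR in Col-0 (miR162a-3p, log2 fold change -2.90 ± 0.75, SE; adjusted p = 0.00159). The passenger, miR162a-5p, had 0, 0 and 0.546 RPMR in dcl1-24/hyl1-2, against 5.44, 9.79 and 1.37 RPMR in Col-0 (log2 fold change -2.24, adjusted p = 0.000584). The site that pairs with this guide in the DCL1 transcript spans exons 12 and 13 of 20, and the paired bases are in capitals.
miR162 site in DCL1: CUGGAUGCAGAGGUaUUAUCGA
It pairs with the guide at 21 of 22 bases, with the remaining base bulged, and no other stretch of the transcript came nearer than 6 mismatches. The exon parts lie within chr1:27522-27627 on the plus strand. A miRNA that DCL1 carries in its own intron 14, miR838, did not pass the test, with 1.16, 2.23 and 2.18 RPMR in dcl1-24/hyl1-2, against 2.51, 3.26 and 0.683 RPMR in Col-0 (adjusted p = 0.947). Of the 7 tested entries of miRNAs that target the silencing machinery, 0 were higher (16.5% over all tested) and 2 were lower (28.6%, against 10.1% over all tested), both of miR162. The AGO2 repressor miR403-3p was at a log2 fold change of -1.28 (adjusted p = 0.2), but was called lower when scaled to summed miRNA RPMR (-1.55, adjusted p = 0.00074). The AGO1 repressor miR168a-5p was at 0.25 (adjusted p = 0.825), but was called higher under scaling to the sum without miR5026 (1.18, adjusted p = 0.0226), and miR168a-3p was at -0.07 (adjusted p = 0.947).

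The last of the lower entries with large changes were miR775, miR165a-5p, miR169f-3p and miR171b-5p. For miR775 the levels were 0.58, 0.891 and 4.37 RPMR in dcl1-24/hyl1-2, against 20.5, 25.3 and 8.53 RPMR in Col-0 (log2 fold change -2.80, adjusted p = 0.000584). For miR165a-5p they were 9.28, 21.4 and 16.4 RPMR in dcl1-24/hyl1-2, against 81.2, 128.5 and 47.1 RPMR in Col-0 (log2 fold change -2.33, adjusted p = 0.0127). The call of miR165a-5p was lost without Col-0 replicate 2 (adjusted p = 0.078), without dcl1-24/hyl1-2 replicate 1 (adjusted p = 0.0701) and under scaling to the sum without miR5026 (-1.38, adjusted p = 0.126). The guide strand of the miR165a duplex, miR165a-3p, which represses HD-ZIP III genes, had 126.4, 197.3 and 431.2 RPMR in dcl1-24/hyl1-2, against 1002, 1196 and 389.5 RPMR in Col-0, and just missed the threshold (log2 fold change -1.81, adjusted p = 0.063). Under scaling to summed miRNA RPMR (-2.08, adjusted p = 0.00396) and under median-of-ratios scaling (-1.32, adjusted p = 0.0421) miR165a-3p passed. In contrast, the close relative miR166a-3p, shared by 7 names, was at a log2 fold change of -0.60 (adjusted p = 0.511), with 2159, 3778 and 6405 RPMR in dcl1-24/hyl1-2 and 6248, 9200 and 3147 RPMR in Col-0. The miR169f-3p and miR171b-5p entries are passenger strands with log2 fold changes of -1.93 (adjusted p = 0.0229) and -1.84 (adjusted p = 0.00361). Under scaling to the sum without miR5026 neither passed, with miR169f-3p at -0.95 (adjusted p = 0.212) and miR171b-5p at -1.04 (adjusted p = 0.091). The call of miR169f-3p was also lost under median-of-ratios scaling (-1.16, adjusted p = 0.0969), with 5 RPMR added (-0.81, adjusted p = 0.169), and without Col-0 replicate 1 or 2 or dcl1-24/hyl1-2 replicate 3 (adjusted p = 0.078 to 0.11). That of miR171b-5p was lost without Col-0 replicate 1 (adjusted p = 0.0678). The guide miR171b-3p did not pass (log2 fold change -1.10, adjusted p = 0.237).

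**Figure D3:**
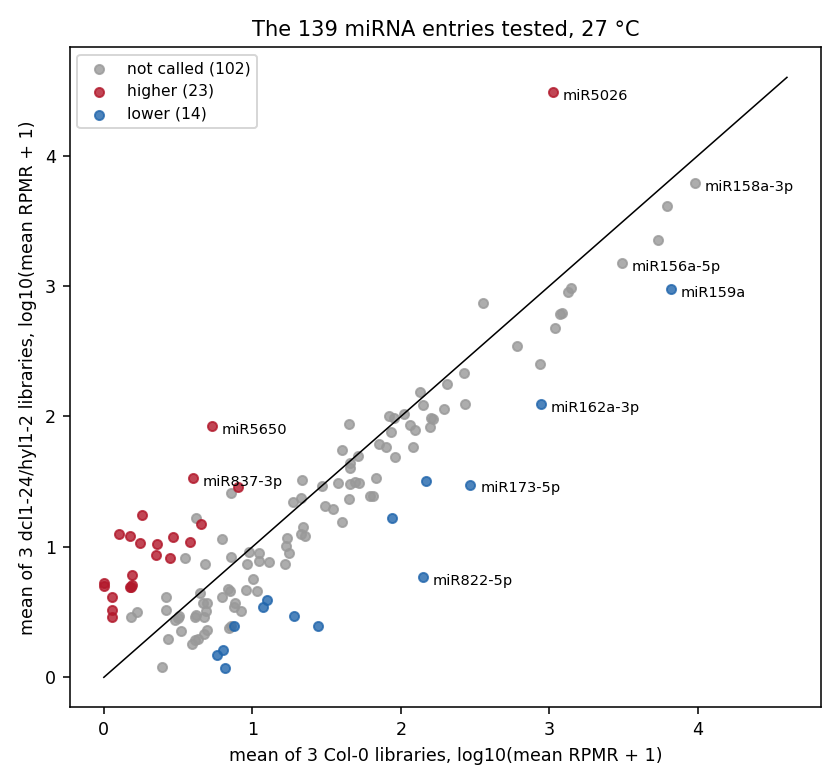
Mean level of each tested entry in the 3 dcl1-24/hyl1-2 libraries (vertical axis) against that in the 3 Col-0 libraries (horizontal axis), both at 27 °C and as log10(mean RPMR + 1). The line marks equal levels, and red, blue and grey dots are the 23 higher, 14 lower and 102 uncalled entries. The red dots apart from miR5026 lie at the low end of both axes.

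Of the guide strands that target SPL transcription factor genes, 0 of 3 passed the test in either direction. The miR156 guide shared by miR156a to miR156f had 564, 1352 and 2590 RPMR in dcl1-24/hyl1-2, against 2818, 4990 and 1418 RPMR in Col-0, which overlapped (miR156a-5p, log2 fold change -1.11 ± 0.67, SE; adjusted p = 0.237). The other guides, miR156g and the miR157a-5p entry, were at log2 fold changes of -0.99 (adjusted p = 0.308) and -0.91 (adjusted p = 0.403). Under scaling to summed miRNA RPMR, 2 of the 3 guides were called lower, miR156a-5p at -1.38 (adjusted p = 0.0056) and miR157a-5p at -1.15 (adjusted p = 0.0229). None of the 6 passenger strands of these families passed (with miR5026 left out of the sum, miR156b-3p was called higher, at 1.49, adjusted p = 0.0497), and their median was -0.08, with miR156a-3p at 0.40, miR157a-3p at -0.72 and miR156c-3p at -0.79. A p above the threshold does not show that these levels are equal in both genotypes.

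Of the remaining lists, most had few called members. Of the auxin-related families miR160, miR167, miR390 and miR393, 0 of 13 entries were called, with a median log2 fold change of -0.63. These 13 entries include guide and passenger strands. Examples are miR167a-5p, which represses ARF genes, at -0.63, miR390a-5p, which triggers TAS3 siRNAs, at -0.16, and miR393b-3p at 0.23. The last is the strand opposite the one that targets TIR1, which had no entry. Under scaling to the sum without miR5026, miR393b-3p was called higher (1.17, adjusted p = 0.0201). For leaf and meristem development, 0 of 20 were higher and 3 lower (15.0%, against 10.1% over all tested), namely miR159a, miR319c and miR165a-5p, with a median of -0.69. The GRF repressors miR396a-5p and miR396b-5p were at -0.92 and -0.31 and did not pass.

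For the scarecrow-like and NF-Y regulators, 2 of 6 were lower (33.3%, against 10.1% over all tested) and 0 higher, with a median of -0.94. The 2 were miR169f-3p and miR171b-5p, both passenger strands, and the guide miR171b-3p did not pass. Under scaling to the sum without miR5026, 0 of the 6 were called lower. The strands miR171a-3p and miR171a-5p were at log2 fold changes of 0.16 and -0.79. The pentatricopeptide repeat regulators had 1 lower of 4 (25.0%) and a median of -1.01. The copper-responsive miRNAs had 0 called of 6 and a median of 0.17, with miR398b-3p, a repressor of copper superoxide dismutase genes, at 0.98, miR398b-5p at -0.86 and miR408-3p at -0.79. However, miR398b-3p was called higher under scaling to the sum without miR5026 (1.93, adjusted p = 0.00196) and under median-of-ratios scaling (1.46, adjusted p = 0.00842), and miR398b-5p was called lower under scaling to summed miRNA RPMR (-1.09, adjusted p = 0.0351). The phosphate- and sulfate-responsive miRNAs had 0 called of 5 and a median of -0.39, with the PHO2 repressor miR399b at -0.89, miR395b at -0.39 and miR827 at -1.35 (adjusted p = 0.0526), which passed under scaling to summed miRNA RPMR (-1.25, adjusted p = 0.0208). The lineage-restricted families with known targets had 0 called of 15 and a median of -0.61, with miR158a-3p at -0.77, miR858a, a MYB repressor, at -0.78 and miR846-3p at -0.36. Under scaling to summed miRNA RPMR, 5 of these 15 were called lower, among them miR158a-3p at -1.05 (adjusted p = 0.0056). These medians stand beside -0.52 for all 139 entries. At an unadjusted p under 0.05 in limma, no member of these lists was higher, and among the lists with 0 called there was 1 lower auxin-related and 1 lower phosphate- or sulfate-responsive entry.

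The second most abundant miRNA, miR158a-3p, had 2589, 5350 and 10551 RPMR in dcl1-24/hyl1-2, against 7858, 13974 and 6664 RPMR in Col-0 (adjusted p = 0.36). As a share of the summed level without miR5026 it made up 25.5% ± 2.82 in dcl1-24/hyl1-2 and 22.8% ± 5.31 in Col-0 (SD, n = 3 each; exact permutation test, two-sided p = 0.6), which overlapped.

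Taken over the whole miRNA pool, the genotypes could not be separated. The summed level was 28742, 52972 and 80581 RPMR in dcl1-24/hyl1-2, against 41894, 70660 and 23503 RPMR in Col-0 (difference of mean log2 sums 0.27, exact permutation test, two-sided p = 0.7). Without miR5026 the sums were 11013, 21993 and 36686 RPMR in dcl1-24/hyl1-2, against 41082, 68730 and 23083 RPMR in Col-0, and the difference turned to -0.96 (exact p = 0.2). The mean of log10(RPMR + 1) over all 161 entries was 1.08 ± 0.20 in dcl1-24/hyl1-2 and 1.13 ± 0.20 in Col-0 (SD, n = 3 each; exact p = 0.7). Each group therefore spanned a wide range of summed levels. The implied miRNA reads per library were 99148, 118929 and 147642 in dcl1-24/hyl1-2, against 100092, 173156 and 68857 in Col-0.

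The ratio between the strands of a hairpin within a library depends on the 45S rRNA reads only through the constant added to each strand, which weighs on strands of few reads. It was computed as log2 of the 5p over the 3p level, each with 1 RPMR added, for the 43 pairs with both strands tested, and the libraries of the genotypes did not overlap in 10 of them (23.3%). With 3 against 3 libraries the exact permutation p of each is 0.1, the smallest possible. The miR156a-5p guide to miR156a-3p ratio was 3.83, 4.06 and 3.94 in dcl1-24/hyl1-2, against 5.28, 4.82 and 6.27 in Col-0. Against miR156b-3p, the same guide was at 5.01, 5.06 and 4.58 in dcl1-24/hyl1-2, against 5.96, 6.18 and 7.63 in Col-0. This guide is pooled over 6 miR156 names and was set against 4 passenger strands, of which these are the 2 without overlap. Against miR156c-3p and miR156f-3p the genotypes overlapped, with differences in the log2 ratio of -0.32 (exact permutation p = 0.6) and -0.71 (exact permutation p = 0.2).

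Further ratios of 5p to 3p were lower too. In miR398b, where the 3p strand is the guide, the log2 ratio of 5p to 3p was -5.33, -4.35 and -5.21 in dcl1-24/hyl1-2, against -3.47, -2.47 and -3.42 in Col-0. In miR822 it was 1.29, 1.41 and 1.02 in dcl1-24/hyl1-2, against 2.03, 2.81 and 2.08 in Col-0, and in miR396b it was 1.41 lower on average. The ratio of miR840 was 1.48 lower and that of miR472 was 0.74 higher on the log2 scale. The separation of miR829, miR5632 and miR5654 rested on the constant: with 0.5 RPMR added in place of 1, these 3 pairs overlapped, and with 5 RPMR added miR829 did. Their strands had few reads, with miR5632-5p at 0, 0.816 and 0 RPMR in Col-0. The size of the miR822 difference also depended on the constant. It was -0.77 with 0.5 RPMR added, -1.06 with 1 and -1.57 with 5, without overlap at any of them. Of the 10 pairs, 9 had a difference of the same sign at 21 °C, with miR398b as the exception. At 21 °C, 4 of them did not overlap either, namely the miR156a-3p and miR156b-3p pairs, miR822 and miR5654. Among all 43 pairs, those without overlap at 21 °C only were the miR156c-3p and miR156f-3p pairs and miR5663. Their differences at 21 °C were -0.98, -2.17 and 1.26, so the guide was lower there against all 4 miR156 passenger strands.

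**Figure D4:**
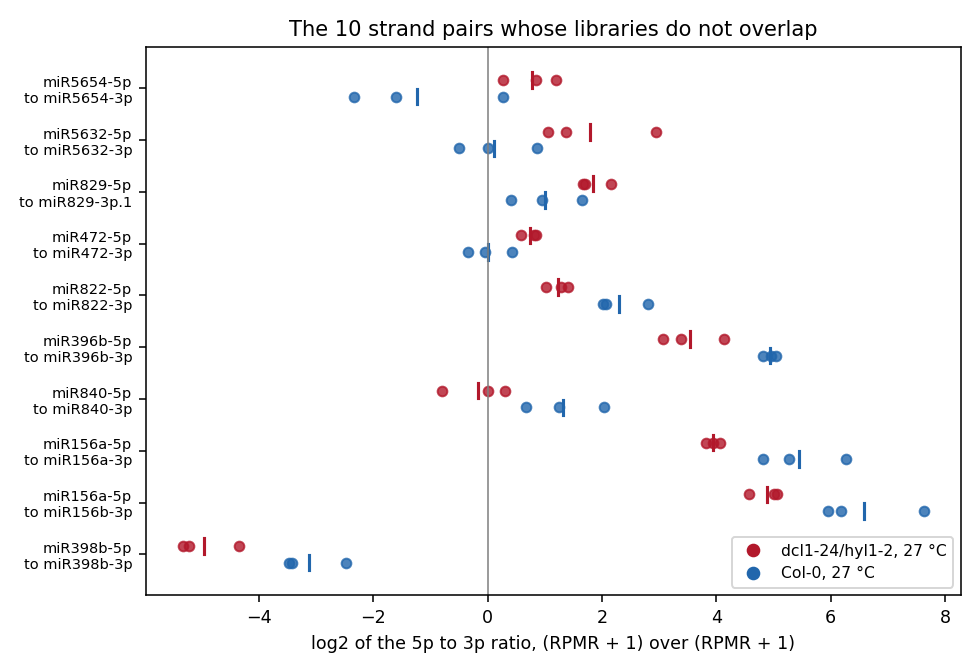
Log2 of the 5p to 3p ratio within each library (horizontal axis, 1 RPMR added to each strand) for the 10 hairpins whose 27 °C libraries do not overlap, with dcl1-24/hyl1-2 in red above Col-0 in blue. Dots are libraries and ticks are means of 3. The pooled miR156 guide stands lower relative to miR156a-3p and miR156b-3p in dcl1-24/hyl1-2, and miR398b shows the largest shift downwards, by 1.84.

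The same comparison at 21 °C rests on 6 other libraries, but the spread used for the calls was estimated from all 18 at both temperatures. At 21 °C, 19 entries of dcl1-24/hyl1-2 were above their Col-0 levels (13.7%) and 11 below (7.91%). Over all 139 tested entries the median log2 fold change there was -0.07, and the share with the same sign at both temperatures was not counted. All 23 entries that were higher at 27 °C had a positive and all 14 lower entries a negative difference at 21 °C. Of these, 19 and 8 were themselves called at 21 °C, and 0 entries were called higher and 3 lower (miR1886.2, miR393a-3p and miR779.2) at 21 °C without being called at 27 °C. The log2 fold change at 21 °C was 4.76 for miR5026 (adjusted p = 8.45e-10), 4.06 for miR5650 (adjusted p = 9.97e-06), -2.52 for miR159a (adjusted p = 0.00278) and -3.29 for miR822-5p (adjusted p = 0.000342).

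Whether the difference between the genotypes itself differed between 27 and 21 °C was tested as an interaction. No entry passed (0 at an adjusted p under 0.05 in limma, 1 at an unadjusted p under 0.05), and the smallest adjusted p was 0.974. At 21 °C, miR840-5p was at a log2 fold change of -0.23 (adjusted p = 0.944), and miR5632-5p at 1.37 (adjusted p = 0.0711), but neither passed the interaction test. The median standard error of this difference was 0.96 on the log2 scale, so a 2-fold difference between the temperatures lay within about 1 standard error.

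**Figure D5:**
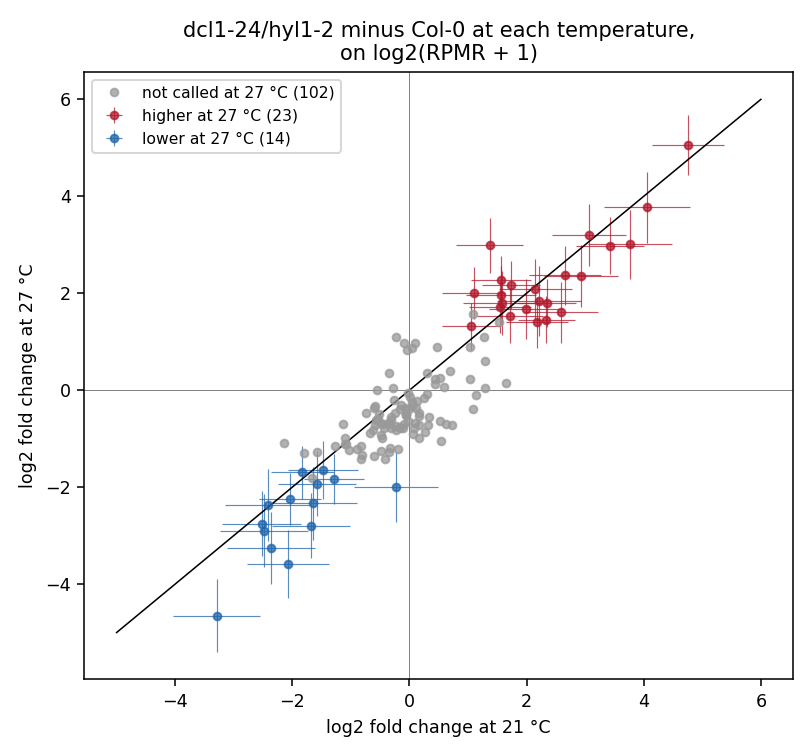
Log2 fold change of dcl1-24/hyl1-2 minus Col-0, on RPMR + 1, at 27 °C (vertical axis) and 21 °C (horizontal axis) for the 139 tested entries. Bars are standard errors of the called entries and the line marks equal changes. All red dots lie above 0 and all blue dots below 0 on both axes.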

How the data were processed

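Small RNA of 15 to 40 nt from 10 µg of total RNA of whole seedlings was sequenced. As the authors describe, adapters were removed with cutadapt 3.0, reads of 18 to 42 nt were aligned without mismatches to Araport11 with ShortStack 3.8, and counts were scaled with pRNASeqtools 0.8 to 45S rRNA reads. The deposited values are therefore a form of RPM, called RPMR, and 29 entries pool identical mature sequences. The authors ran DESeq2 1.35.0 for their own comparisons, which were not used. No column was left unused (0).

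Every value in a library is a whole multiple of its smallest one (to within 1.1e-10), which gave the implied reads. These describe depth and single low values and set the floor of 3 reads, and no test used them. Fold changes on log2(RPMR + 1) were fitted with limma 3.58.1 (R 4.3.3), with trended variances, all 18 libraries, a mean per group, and two-sided p-values adjusted by Benjamini and Hochberg over 139 entries. The other 22 entries had means under 1 RPMR and were not tested. Per-library measures were compared by exact permutation over 20 arrangements. Python 3.11.15, numpy 2.4.6, pandas 2.3.3 and matplotlib 3.10.9 were used. The procedure was tested on simulated data that lacked differences in summed level between the libraries of a group. That test therefore does not bear on the dependence on scaling or on single libraries.

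The members, lists and tests were chosen with earlier results of these data known. Named miRNAs are up to 12 per direction with the largest change among called, non-overlapping entries, both strands of their hairpins, the 10 most abundant, and up to 3 of each list. Others were named after their values were seen. The scalings tried besides 45S rRNA were summed miRNA RPMR with and without miR5026 and median-of-ratios. Hairpin positions were compared with coding genes of TAIR10.1, and an entry with several positions was placed by any that lay in a same-strand intron.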

Additional observations from a re-analysis of the deposited data

How the results depend on the processing

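With the replicate number as a block in the fit, the counts were the same: 23 higher, 14 lower, 35 past the threshold on p and fold change and 0 in the interaction. The labels do not say that a number pairs libraries, and the deviations of same-numbered libraries from their group means correlated at -0.05, 0.18 and 0.08. Requiring a mean of 5 RPMR left 87 entries tested and gave 5 higher, 15 past the threshold on p and fold change and 3 higher in same-strand introns. A fit of only the groups compared gave 15 higher. A pseudocount of 5 gave 20 past the threshold on p and fold change. Scaling to summed miRNA RPMR gave 31 lower, and leaving miR5026 out of that sum gave 7 lower and 33 higher. The cause of these shifts was not tested. Fewer entries were tested under the stricter filter. Under array weights 21 entries were lower. In strand ratios, pseudocounts of 0.5 and 5 gave 8 and 15 non-overlapping pairs. This alternative and that of the intron count were chosen after seeing the data. Leaving out 1 library gave 11 to 24 higher, 8 to 20 lower, 27 to 33 past the threshold on p and fold change and 5 to 13 higher in same-strand introns. It gave differences of -0.13 to 0.67 in the log2 sum, and of -0.16 to 0.045 in the mean log10 level. The log2 sum without miR5026, also the entry of highest mean RPMR, differed by -0.96. The interaction count was 0 in all alternatives run. The planned count tests, edgeR and DESeq2, were not run, because each column held fewer than the 100 low values needed to recover reads.

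No called miRNA changed direction. For uncalled ones the log2 fold change changed sign when scaled to summed miRNA RPMR without miR5026: miR156c-3p 0.16, miR157a-3p 0.22, miR157a-5p 0.033, miR158a-3p 0.18, miR161.1 0.26, miR161.2 0.19, miR166a-3p 0.36, miR167a-5p 0.32, miR168a-3p 0.87, miR171a-5p 0.16, miR390a-5p 0.78, miR395b 0.47, miR396a-5p 0.036, miR396b-5p 0.65, miR398b-5p 0.063, miR399b 0.031, miR408-3p 0.16, miR840-3p 0.15, miR846-3p 0.59 and miR858a 0.17. Under median-of-ratios scaling it was 0.40 for miR168a-3p, 0.32 for miR390a-5p, 0.17 for miR395b, 0.18 for miR396b-5p and 0.12 for miR846-3p. Under scaling to summed miRNA RPMR it was -0.10 for miR171a-3p and -0.044 for miR393b-3p, and under array weights -0.042 for miR171a-3p. Without a single library it ranged over -0.47 to 1.16 for miR156a-3p, -1.11 to 0.033 for miR161.2, -0.53 to 0.42 for miR168a-3p, -0.65 to 0.67 for miR171a-3p, -0.69 to 0.37 for miR390a-5p, -0.35 to 0.77 for miR393b-3p, -1.13 to 0.16 for miR395b, -0.93 to 0.31 for miR396b-5p and -0.45 to 0.99 for miR5654-3p.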
